A study of Mus musculus with 3 samples.

Results

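The insulin-like growth factor axis is taken here as 10 genes chosen by symbol: the ligands Igf1 and Igf2, the receptors Igf1r and Igf2r, the binding proteins Igfbp2, Igfbp3, Igfbp4 and Igfbp5, and the receptor substrates Irs1 and Irs2. All 10 were found among the 20162 genes of the count table, each at 1 identifier. RNA was measured in C2C12 cells, a mouse myoblast line whose cells fuse into myotubes once serum is withdrawn. Every population had been infected with a lentivirus for a short hairpin RNA (an shRNA, which lowers the mRNA it matches), was held under puromycin, and was then differentiated for 7 days in medium with 2% horse serum. The control population, ShSC, carried a control shRNA, and the others, ShA and ShB, carried 2 different shRNAs against Tead4. There was 1 library for each, called by these names below. The labels describe selected populations of infected cells and no repeat culture of any of them.

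Igf1 and Igf2 are secreted peptides that bind the receptor tyrosine kinase Igf1r. The active receptor phosphorylates the adaptors Irs1 and Irs2, which recruit phosphoinositide kinase and so switch on Akt, mTOR and protein synthesis, while Akt keeps FoxO factors out of the nucleus. Igf2r carries Igf2 to lysosomes, and the binding proteins hold the ligands in the medium and matrix. In skeletal muscle this axis is known for driving differentiation and growth: myoblasts make Igf2 and Igfbp5 as they differentiate, and Tead4 is a DNA-binding factor that is expressed in the same process.

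Tead4 had 1256 reads in ShSC, 397 in ShA and 170 in ShB, which is in the direction of the labels. Libraries held from 15594305 to 19918954 counted reads, and no library was left out. Levels below are CPM, the usual depth-scaled counts, on a library size scaled by edgeR's TMM factors (trimmed mean of M values). Intervals on ratios between libraries are 95% exact ones. They cover counting error only and leave out variation between cultures. They also treat each read as an independent molecule, which reads amplified by PCR are not. The test (edgeR's quasi-likelihood F test, adjusted by Benjamini-Hochberg over all 14478 tested genes) set both Tead4 shRNA libraries against the lone control library. Only 1 residual degree of freedom, between libraries with different shRNAs, informs its spread. Each gene's spread is also drawn towards that of the other genes, with 20.9 prior degrees of freedom in the dispersion estimate. So an SE is not the difference between ShA and ShB for that gene alone, and the p-values cannot show how a control culture varies.

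With Tead4 shRNA, Igf1, Irs1 and Igfbp4 rose, by 2.47-fold, 2.33-fold and 1.93-fold, and the other 7 genes did not pass the test. Of the 10, 3 were called higher and 0 lower. Over all tested genes 5.34% were called higher and 4.48% lower, 9.82% together. The median log2 fold change was 0.64 over the 10 genes and 0.02 over all tested genes. At an unadjusted p under 0.05, 6 of the 10 were higher and 0 lower. Of all 14478 tested genes, 3143 had such a p, 1416 of them lower. DESeq2 called 2 of the 10 higher and limma-voom called 3, and neither called any of the 10 lower. Over all tested genes DESeq2 called 448 higher and 374 lower, and limma-voom 689 and 679.

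Promoter sequences of the 3 genes that rose are shown first, because they let a reader see which known motifs lie directly before the start of each. They are RefSeq sequences of build GRCm38.p6, which is not the mm9 build named in the submitters' processing notes. All 10 genes matched that table by symbol, at 14 windows of 300 bases (250 before a start and 50 from it on). Each line holds the 250 bases before the start, 5′ to 3′ on the gene's strand. Capitals mark any of 4 motifs searched on both strands: CATTCC, the core bound by TEAD factors, the E-box CAGCTG of myogenic factors, GTAAACA of FoxO factors, and the TATA box TATAAA.
Igf1, chr10:87860861-87861110, plus strand: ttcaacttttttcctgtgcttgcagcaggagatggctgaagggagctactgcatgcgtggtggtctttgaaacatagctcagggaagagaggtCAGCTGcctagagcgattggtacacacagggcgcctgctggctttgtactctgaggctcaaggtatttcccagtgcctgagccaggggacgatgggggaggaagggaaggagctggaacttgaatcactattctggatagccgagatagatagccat
Irs1, chr1:82291440-82291689, minus strand: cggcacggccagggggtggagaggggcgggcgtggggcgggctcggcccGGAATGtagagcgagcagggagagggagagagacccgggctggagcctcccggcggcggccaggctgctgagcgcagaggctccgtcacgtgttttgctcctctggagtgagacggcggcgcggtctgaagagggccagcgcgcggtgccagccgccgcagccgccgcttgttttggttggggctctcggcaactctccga
Igfbp4, chr11:99040994-99041243, plus strand: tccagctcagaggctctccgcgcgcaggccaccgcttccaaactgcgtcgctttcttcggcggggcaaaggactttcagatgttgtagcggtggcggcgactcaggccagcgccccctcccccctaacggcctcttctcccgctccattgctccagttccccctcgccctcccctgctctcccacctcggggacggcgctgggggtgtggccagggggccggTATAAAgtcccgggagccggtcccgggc

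The 3 windows held a different motif each. Igf1 held an E-box beginning 157 bases before the start, Irs1 held the TEAD core on the opposite strand (read here as GGAATG) 201 bases before it, and Igfbp4 held a TATA box 28 bases before it. The Irs1 and Igfbp4 windows were rich in C and G (each 71.3% of bases), against 52.3% for Igf1 and a median of 52.7% over all 32851 windows. The TEAD core was found in 5 of the 14 windows of these genes and in 14.7% of all windows. The E-box was in 1 of the 14 and 16.3% of all, the TATA box in 1 and 13.6%, and the FoxO motif in 0 and 3.65%. A match describes letters in the window and is not evidence of binding.

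The other 4 windows with the TEAD core belonged to Igf2 (3 of its 4 starts) and Igfbp5, neither of which was called. Stretches of 40 bases around the first core in each are given for comparison with Irs1, with the core in capitals.
Igf2, chr7:142657637-142657676, minus strand: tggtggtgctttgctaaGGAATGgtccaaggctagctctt
Igf2, chr7:142658962-142659001, minus strand: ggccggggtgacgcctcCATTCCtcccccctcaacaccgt
Igf2, chr7:142661467-142661506, minus strand: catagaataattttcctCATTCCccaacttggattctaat
Igfbp5, chr1:72875076-72875115, minus strand: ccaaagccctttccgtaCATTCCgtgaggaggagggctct
So the core stood before 1 gene that rose and before 2 genes that were not called, and the promoters of Igf1 and Igfbp4 shown above lacked it in this window.

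Among the ligands, Igf1 (ENSMUSG00000020053) was at 23.5 CPM in ShSC, 64.4 CPM in ShA and 51.7 CPM in ShB, from 378, 1295 and 815 reads. Both Tead4 shRNA libraries were above the control, and ShA was above ShB. The log2 ratio to ShSC was 1.45 in ShA (interval 1.28 to 1.62) and 1.14 in ShB (0.96 to 1.32). For the Tead4 shRNA libraries together it was 1.30 (SE 0.25, adjusted p = 0.00124 by edgeR).

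Igf2 (ENSMUSG00000048583), the growth factor known to be made in quantity by differentiating myoblasts, was at 198 CPM in ShSC, 145 in ShA and 185 in ShB. Its log2 ratio was -0.45 in ShA (interval -0.53 to -0.38) and -0.10 in ShB (-0.18 to -0.03). This was the only member of the 10 with both ratios below 0. It did not pass the test (log2 fold change -0.27, SE 0.23, adjusted p = 0.577), and the interval in ShB crossed 0 under upper-quartile scaling (-0.14 to 0.01) and total-count scaling (-0.13 to 0.02). Igf2 shares exon sequence with Gm49394 and, on the opposite strand, with Igf2os. Igf2os had 3, 13 and 8 reads in ShSC, ShA and ShB, and Gm49394 was not analysed here.

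The ligands can also be compared within each library, which needs no scaling between libraries. Igf1 made up 10.6% of the reads on both ligands in ShSC (interval 9.61 to 11.7), 30.7% in ShA (29.4 to 32.2) and 21.9% in ShB (20.6 to 23.2). The 3 intervals did not overlap. These shares follow gene length as well as level. Per kilobase of exon Igf2 was at 34.7, 25.3 and 32.3 CPM against 2.38, 6.50 and 5.22 CPM for Igf1 (ShSC, ShA and ShB).

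H19, a long RNA of the imprinted domain that also holds Igf2 and that shares its enhancers, was at 4117 CPM in ShSC, 4327 in ShA and 5198 in ShB. The test did not call it (log2 fold change 0.21, SE 0.25, adjusted p = 0.715).

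**Figure D1:**
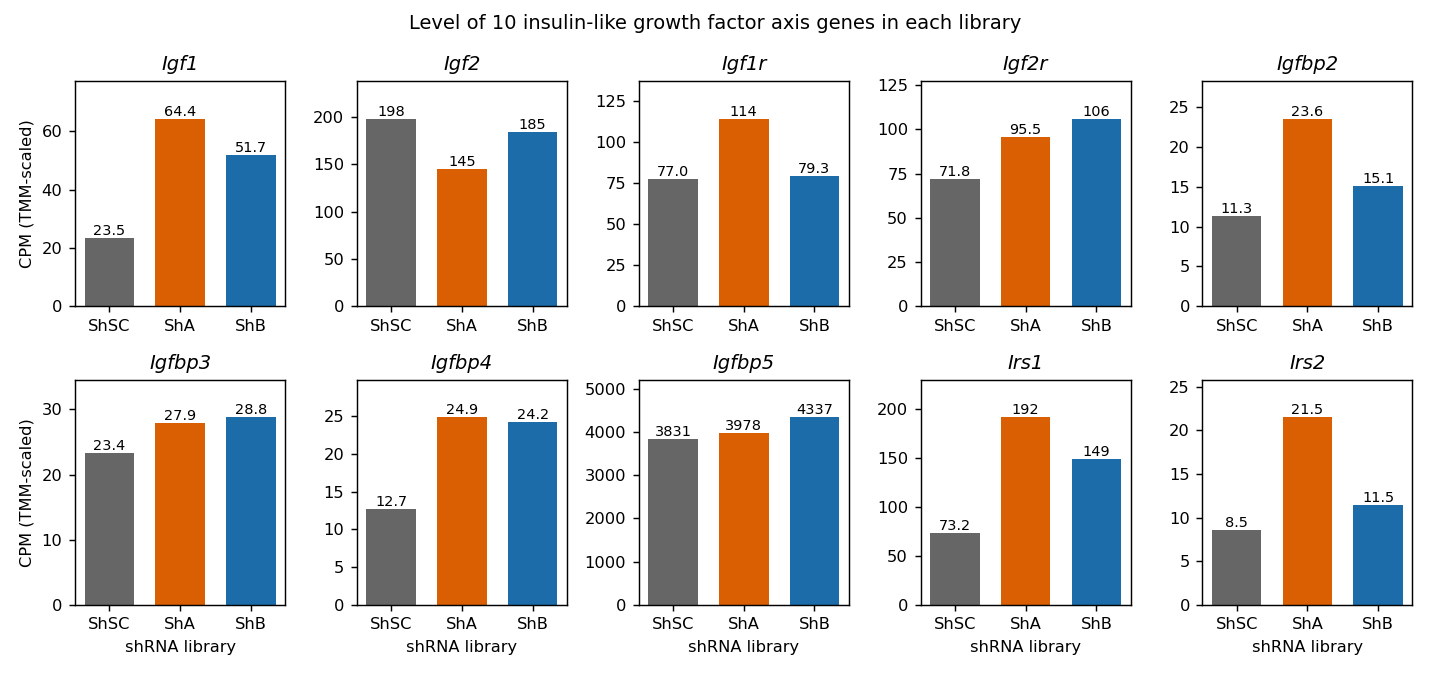
Level of each of the 10 genes in CPM (vertical axis, from 0 and different in each panel) in ShSC, ShA and ShB, 1 bar a library with its value above it. Igf1, Irs1 and Igfbp4 stand higher in both Tead4 shRNA libraries than in ShSC, and Igf2 is the only gene with both bars below it.

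The receptors did not pass the test. Igf1r (ENSMUSG00000005533), the signalling receptor for both ligands, was at 77.0 CPM in ShSC, 114 in ShA and 79.3 in ShB. Only ShA stood apart: the log2 ratio was 0.57 in ShA (interval 0.47 to 0.67), and 0.04 in ShB (-0.07 to 0.16). The log2 fold change over both was 0.33 (SE 0.24, adjusted p = 0.488).

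Igf2r (ENSMUSG00000023830), the clearance receptor for Igf2, was at 71.8, 95.5 and 106 CPM in ShSC, ShA and ShB. It was higher in both Tead4 shRNA libraries, with log2 ratios of 0.41 (interval 0.31 to 0.52) and 0.56 (0.45 to 0.67), but the test did not call it (0.49, SE 0.23, adjusted p = 0.204). Airn, an RNA read from the opposite strand across part of Igf2r, had 10, 16 and 12 reads. As annotated in GENCODE M21, Airn shares no exon sequence with Igf2r. Igf1r made up 51.8% of the reads on Igf1r and Igf2r in ShSC (49.7 to 53.8), 54.4% in ShA (52.9 to 55.9) and 42.8% in ShB (41.0 to 44.6).

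The insulin receptor Insr, the nearest relative of Igf1r, was at 80.3, 70.8 and 59.9 CPM, and it was not called (-0.30, SE 0.22, adjusted p = 0.487). Igf1r made up 49.0% of the reads on Igf1r and Insr in ShSC (47.0 to 50.9), 61.7% in ShA (60.1 to 63.3) and 57.0% in ShB (54.9 to 59.0). Both Tead4 shRNA libraries lay above the control in this share.

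Of the binding proteins, Igfbp5 had the highest level per kilobase of exon in each library and was not called. Igfbp5 (ENSMUSG00000026185), known as the main binding protein of differentiating myoblasts, was at 3831 CPM in ShSC, 3978 in ShA and 4337 in ShB. Its counting intervals were narrow and lay above 0 (0.04 to 0.07 and 0.16 to 0.19 on the log2 scale). The test, whose spread goes beyond counting error and draws on other genes too, did not call it (0.12, SE 0.25, adjusted p = 0.852). It made up 98.8% of reads on the 4 binding proteins in ShSC, 98.1% in ShA and 98.5% in ShB, shares that are not scaled to gene length. With Igfbp6 and Igfbp7 added to the set, it made up 93.0% in ShSC, 92.7% in ShA and 93.7% in ShB. Per kilobase of exon it was at 638, 662 and 722 CPM in ShSC, ShA and ShB, above every other gene of the axis.

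Igfbp4 (ENSMUSG00000017493), a secreted inhibitor of the ligands that is cleaved by the protease Pappa, was at 12.7 CPM in ShSC, 24.9 in ShA and 24.2 in ShB. Both Tead4 shRNA libraries lay above the control, and the interval of their own ratio, given below, included no difference. From 204, 500 and 381 reads the log2 ratios were 0.97 (interval 0.73 to 1.21) and 0.93 (0.68 to 1.18). The log2 fold change was 0.95 (SE 0.26, adjusted p = 0.0191). DESeq2 did not call it (adjusted p = 0.110).

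Igfbp2 (ENSMUSG00000039323) was at 11.3 CPM in ShSC, 23.6 in ShA and 15.1 in ShB. Its log2 ratio of 1.06 in ShA (interval 0.81 to 1.32) was above that of 0.42 in ShB (0.14 to 0.71), and it was not called (0.78, SE 0.30, adjusted p = 0.107). Igfbp3 (ENSMUSG00000020427), the main carrier of the ligands in serum, was at 23.4, 27.9 and 28.8 CPM in ShSC, ShA and ShB. Both of its log2 ratios were small, at 0.26 (0.07 to 0.45) and 0.30 (0.10 to 0.50), and it was not called (0.28, SE 0.24, adjusted p = 0.569).

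**Figure D2:**
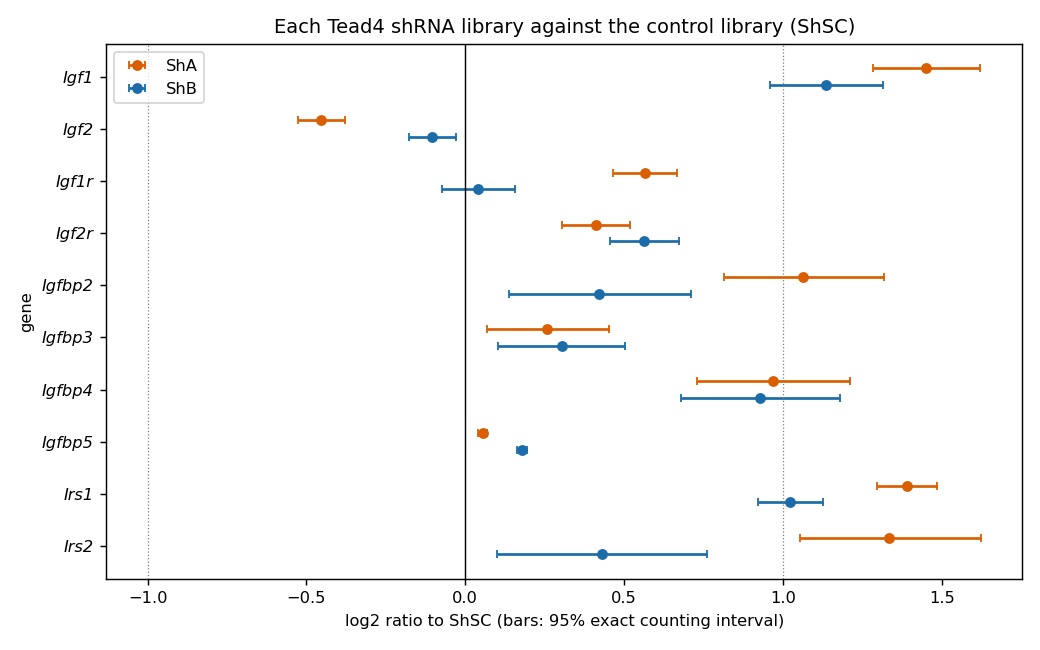
Log2 ratio of each Tead4 shRNA library to ShSC (horizontal axis; ShA orange, ShB blue) for the 10 genes, with the 95% exact counting interval as bars and dotted lines at a 2-fold change. Igf1 and Irs1 lie past 2-fold in both libraries, and the points of Igf1r, Igfbp2 and Irs2 lie farther from 0 in ShA.

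Of the receptor substrates, Irs1 was called and Irs2 was not. Irs1 (ENSMUSG00000055980), the adaptor that links the active receptor to phosphoinositide kinase, was at 73.2 CPM in ShSC, 192 in ShA and 149 in ShB. Both libraries lay above the control, with log2 ratios of 1.39 (interval 1.30 to 1.49) and 1.02 (0.92 to 1.13). The log2 fold change was 1.22 (SE 0.25, adjusted p = 0.00229).

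A gene that shares exon sequence with Irs1 on the opposite strand, Gm9747, stands in the count table under the symbol AC123690.1. It had 267, 1057 and 660 reads against 1175, 3857 and 2343 for Irs1 in ShSC, ShA and ShB. The log2 fold change of Gm9747 was 1.51 (SE 0.26, adjusted p = 5.00e-04 by edgeR). The library kit does not mark strand, so reads of these genes cannot be told apart where they share sequence. With both rows summed, the log2 ratios were 1.44 in ShA and 1.09 in ShB.

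Irs2 (ENSMUSG00000038894), a related adaptor, was at 8.53 CPM in ShSC, 21.5 in ShA and 11.5 in ShB, from 137, 433 and 181 reads. Its log2 ratio was 1.34 in ShA (interval 1.05 to 1.62) and 0.43 in ShB (0.10 to 0.76). The log2 fold change over both was 0.96, about as large as that of Igfbp4, but its SE was larger (0.34) and it was not called (adjusted p = 0.0805). Without a filter on low counts it was called (adjusted p = 0.0229). Irs2 shares exon sequence with 9530052E02Rik on the opposite strand, which was not analysed here. Irs1 made up 89.6% of the reads on both substrates in ShSC (87.8 to 91.2), 89.9% in ShA (89.0 to 90.8) and 92.8% in ShB (91.8 to 93.8).

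**Figure D3:**
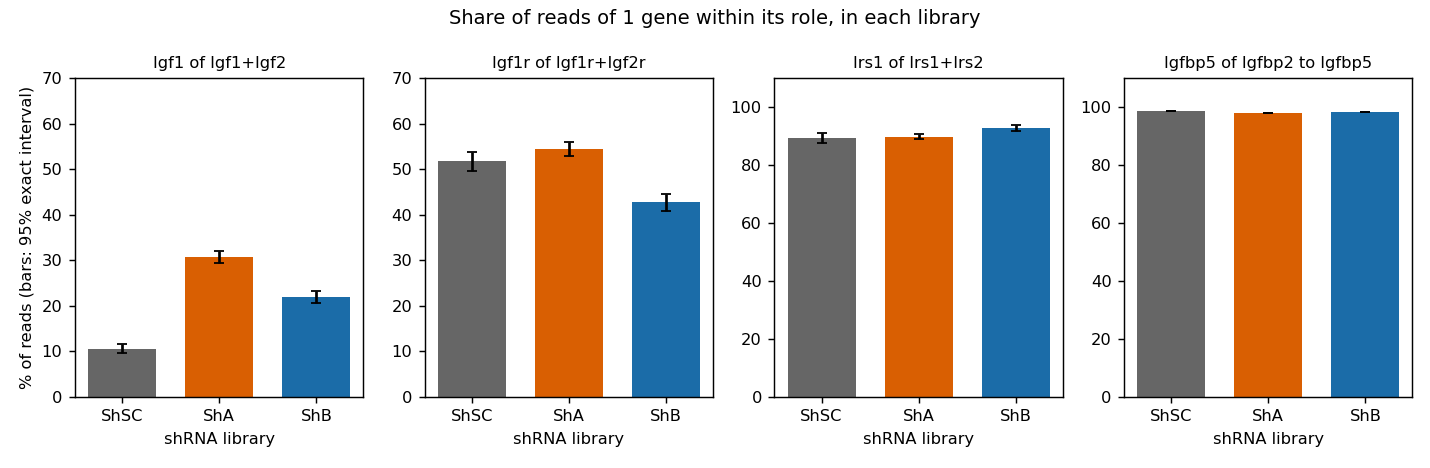
Percent of reads that fell on 1 gene out of the reads on all genes of its role (vertical axis, from 0) in ShSC, ShA and ShB, not scaled to gene length, with 95% exact intervals as bars. The share of Igf1 among ligand reads is 10.6%, 30.7% and 21.9%, while Igfbp5 takes over 98% of the reads on Igfbp2 to Igfbp5 in each library.

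Each Tead4 shRNA library was next set against the control library alone, which has no replicate check and gives no p-value. In ShA, 4 of the 10 genes were at least 2-fold higher with an interval above 0 (Igf1, Igfbp2, Irs1 and Irs2), against 8.7% of all tested genes. In ShB it was 2 of the 10 (Igf1 and Irs1), against 6.41%. Igf1 and Irs1 passed this in both libraries, as did 4.63% of all tested genes, and 0 of the 10 were 2-fold lower in ShA, in ShB or in both, against 5.88%, 4.74% and 3.1% of all tested genes. Both ratios use the same control library, so a control culture that stood apart would move them together. Both intervals lay above 0 for 8 of the 10 genes, against 21.7% of all tested genes, and below 0 for Igf2 alone (with TMM scaling), against 21.4%. An interval narrows as reads rise, and the shares over all tested genes are not matched for read depth. Igfbp5, with 80015 reads in ShA, is among the 8 at a log2 ratio of only 0.05 there.

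The levels in ShA and ShB differed from each other beyond counting error for 8 of the 10 genes, against 50.6% of all tested genes. That share is likewise not matched for read depth. Of the 8 genes, 5 were higher in ShA (Igf1, Igf1r, Igfbp2, Irs1 and Irs2) and 3 higher in ShB (Igf2, Igf2r and Igfbp5). The log2 ratio of ShA to ShB was 0.91 for Irs2 (interval 0.65 to 1.16), 0.64 for Igfbp2 (0.41 to 0.87) and 0.52 for Igf1r (0.42 to 0.63). For the genes called by the test, which itself uses this spread, it was 0.32 for Igf1 (0.19 to 0.44), 0.37 for Irs1 (0.29 to 0.44) and 0.04 for Igfbp4 (-0.16 to 0.24). Irs2 and Igfbp2 were at least 1.5-fold higher in ShA than in ShB, as were 5.87% of all tested genes. For Tead4 itself the log2 ratio of ShA to ShB was 0.87 (0.61 to 1.14).

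Per kilobase of annotated exon, levels of the 10 genes could be put in order within a library, with lengths from GENCODE M21, a later annotation than the one counted on. Igfbp5 came first, Igf2 next and Irs2 last in each library, whether the length was that of all exons or of the longest coding transcript. Irs1 came right after Igf2 in both Tead4 shRNA libraries with either length. In the control library it did so with the length of all exons only. The order of the other 6 genes changed with the length chosen.

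Other genes of the pathway were taken in 6 lists by role. Of 64 tested, 57 were not called, 2 (3.12%) were called higher and 5 (7.81%) lower, beside 5.34% and 4.48% of all tested genes, so the counts say nothing particular to the pathway. Their median log2 fold change was -0.15. Among further ligands, receptors and binding proteins (4 tested, median -0.33) 0 were called; Igfbp7 had a log2 fold change of -0.37 (SE 0.22) and Igfbp6 of 0.40 (SE 0.22). None of those 4 had an unadjusted p under 0.05. Insulin genes and Igfbp1, the liver binding protein, were near or at 0: Ins1 and Igfbp1 had 0 reads in ShSC and ShA and 1 in ShB, and Ins2 had 14, 8 and 2.

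Proteases that cleave binding proteins and their inhibitors gave 0 calls of 6 tested (1 at an unadjusted p under 0.05, median 0.08). Named by the highest mean CPM are the secreted serine protease Htra1 (0.32, SE 0.28), at 229, 362 and 209 CPM, and the metalloprotease Adam9 (-0.16, SE 0.23). Pappa, the protease of Igfbp4, had 10, 58 and 14 reads in ShSC, ShA and ShB. It was not called (1.61, SE 0.82, adjusted p = 0.265 by edgeR). The 1 gene at an unadjusted p under 0.05 was Pappa2 (-0.94, SE 0.39), with 175, 159 and 53 reads. Of 3 tested genes of the Igf2 locus and its mRNA-binding proteins, 0 were called (1 at an unadjusted p under 0.05, median -0.31). H19 was as given above and Igf2bp2 at -0.31 (SE 0.24). The 1 with such a p was Igf2bp3 (-2.44, SE 0.98), from only 22, 7 and 2 reads in ShSC, ShA and ShB.

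Of 16 tested adaptors and feedback regulators of the receptor (median -0.07), the tyrosine phosphatase Ptpn1, which acts on insulin and Igf1 receptors, rose by 0.81 (SE 0.23, adjusted p = 0.0271). The cytokine and growth hormone signalling inhibitor Socs2 fell by 0.69 (SE 0.21, adjusted p = 0.0423). Ptpn1 went from 59.9 CPM in ShSC to 113 and 96.6, and Socs2 from 75.4 to 44.9 and 48.4. DESeq2 called neither, and the call of Socs2 was lost under RLE, upper-quartile and total-count scaling as well.

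Of 24 tested genes of phosphoinositide kinase, Akt and mTOR (median -0.14), 1 rose and 2 fell, beside 5.34% and 4.48% of all tested genes. The regulatory kinase subunit Pik3r1, which binds phosphorylated Irs proteins, rose from 94.2 CPM to 211 and 159 CPM in ShA and ShB (0.98, SE 0.25, adjusted p = 0.0131). The catalytic subunit Pik3cb fell from 68.3 to 38.1 and 40.0 CPM (-0.81, SE 0.22), a call that DESeq2 did not make. Eif4ebp1, the mTOR substrate that restrains translation, fell from 191 to 62.7 and 52.9 CPM (-1.72, SE 0.22, adjusted p = 1.13e-05). Akt1 and Akt2 had log2 fold changes of 0.16 and 0.04 and were not called.

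Of 11 tested FoxO factors and genes known as FoxO targets (median -0.48), 2 were called lower and 0 higher. Over all tested genes 4.48% were called lower and 5.34% higher. Of the 11, 3 had a log2 fold change above 0. The muscle ubiquitin ligase Trim63 (MuRF1) went from 70.3 CPM to 24.2 and 34.2 CPM (-1.27, SE 0.24, adjusted p = 0.00101). The mitophagy receptor Bnip3 was called lower (log2 fold change -0.76, SE 0.23), a call lost with DESeq2 and under RLE and upper-quartile scaling. Fbxo32, the related muscle ligase, had -0.64 (SE 0.21, adjusted p = 0.0604).

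**Figure D4:**
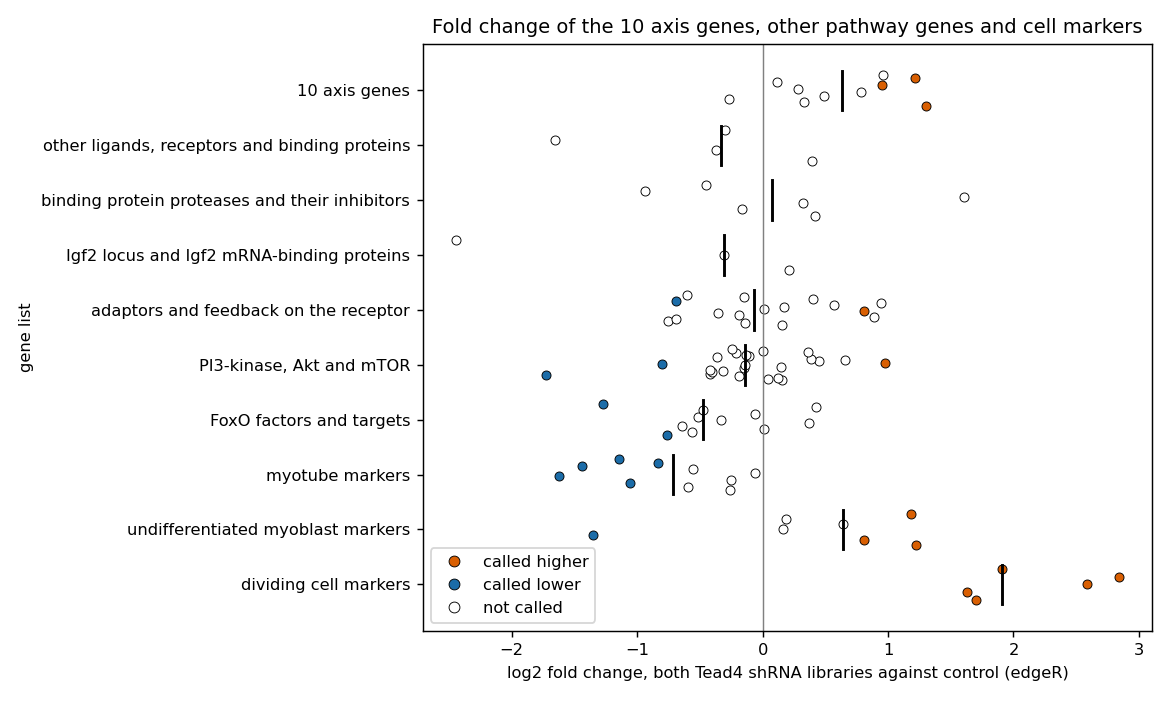
Log2 fold change of both Tead4 shRNA libraries against the control library (horizontal axis) for each tested gene, by list (rows), with filled points for genes called higher or lower, open points for genes not called and a black bar at the list's median. The 10 axis genes lie mostly to the right of 0, the FoxO list to the left but for 3 genes, the myotube markers to the left, and the dividing cell markers between 1.63 and 2.84.

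Levels of cell type markers moved with the shRNAs too, and in RNA from whole cultures fewer cells of a type and less RNA per cell cannot be told apart. Of 10 tested myotube markers 5 were called lower and 0 higher, beside 4.48% and 5.34% of all tested genes. Their summed level was 24855 CPM in ShSC, 14597 in ShA and 17775 in ShB. The embryonic myosin Myh3 had a log2 fold change of -1.63 (SE 0.24) and the differentiation factor Myog of -1.44 (SE 0.24). For the fast troponins Tnnt3 and Tnnc2 it was -1.15 and -0.84 (SE 0.24 each). Dividing cell markers were called higher in 5 of 5, beside the same 5.34%, with sums of 34.3, 144 and 142 CPM. Among them the topoisomerase Top2a had a log2 fold change of 1.91, the proliferation antigen Mki67 of 2.59, the mitotic kinase Cdc2a of 1.63 and the kinase Plk1 of 2.84. Markers of undifferentiated myoblasts were called higher in 3 of 7 (Cd34, Spry1 and Hes1) and lower in 1 (Myf5), beside the same shares. Their sums were 372, 439 and 458 CPM.

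Of 3 tested fibroblast markers 0 were called (0 at an unadjusted p under 0.05), with sums of 140, 134 and 75.6 CPM. Col1a1, a collagen chain, had a log2 fold change of -0.49 (SE 0.27) and the growth factor receptor Pdgfra of -0.01 (SE 0.28). Leukocyte markers (Cd68 and Itgam, neither called) summed to 2.18, 2.73 and 3.11 CPM. Endothelial, adipocyte and hepatocyte markers each summed to under 1 CPM in every library. Of the markers planned, Adipoq and Plin1 (adipocyte), Ptprc (leukocyte) and Thy1 (fibroblast) were not found by symbol, so the sums leave them out. The part that the shift in myotube and dividing cell markers plays in the levels of Igf1, Irs1 and Igfbp4 was not tested.

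**Figure D5:**
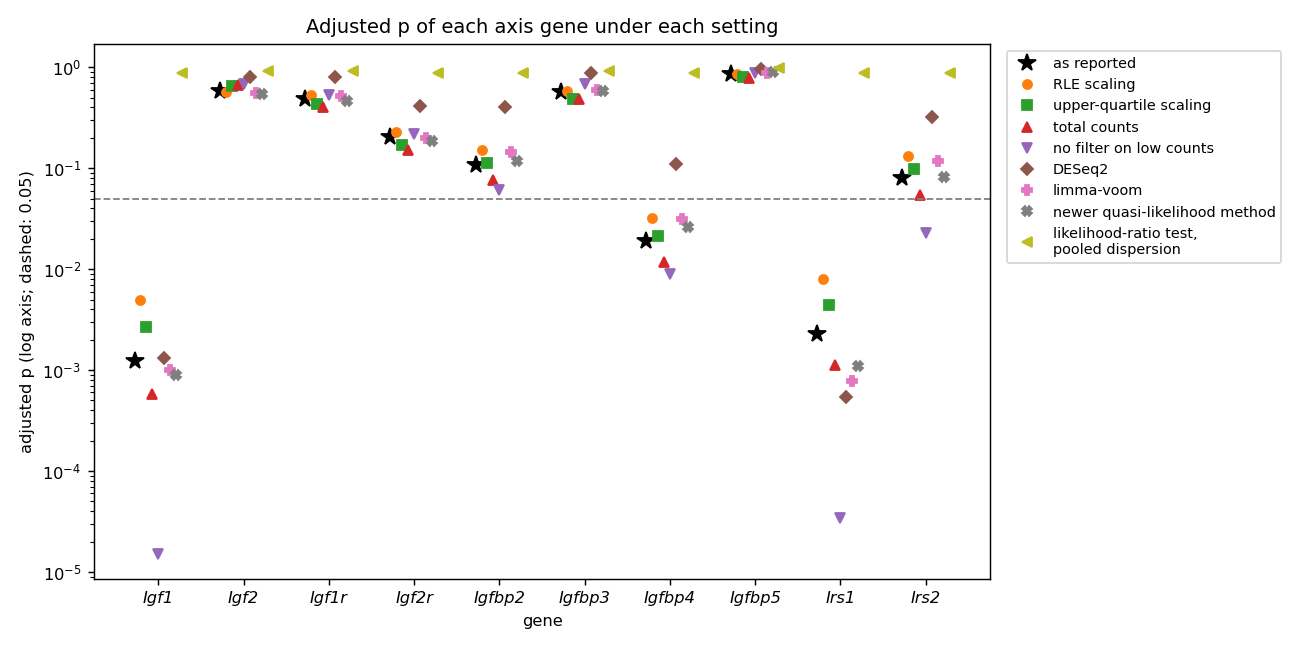
Adjusted p of each of the 10 genes (vertical axis, log scale; dashed line at 0.05) as reported (star) and under 8 other settings. Igf1 and Irs1 lie under 0.05 in all settings but the likelihood-ratio test with pooled dispersion, Igfbp4 rises above it with DESeq2 too, and Irs2 drops below it without a filter on low counts.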

How the data were processed

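The authors' deposited table holds raw read counts per Ensembl gene for 3 libraries, and beside them a normalized value, here treated as a score: the deposited scores equal the raw counts times 1.00, 0.801 and 1.02 (ShSC, ShA and ShB), rounded. Build mm9, Cufflinks 0.8.2, TopHat 1.0.12 and DESeq appear in the submitters' processing notes; how reads were counted is not given in the sources used here. Totals were 16412139, 19918954 and 15594305 reads.

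Tests used R 4.3.3 and edgeR 4.0.16 (filterByExpr, 14478 of 20162 genes; TMM; quasi-likelihood, older method; threshold 0.05), with DESeq2 1.42.0 and limma 3.58.1 as alternatives, and the code was tested on simulated data. SE is the absolute log2 fold change over the square root of F. Ratios and shares carry 95% Clopper-Pearson intervals. GENCODE M21 gave overlaps and exon lengths.

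The 10 genes, the lists and the motifs were chosen with earlier results of these data known, and the shares within a role after seeing the values. All 10 genes are described. From each other list, up to 4 called members with the highest CPM are named, or the top 2 where none was called. Genes outside this rule (Insr, Ins1, Ins2, Igfbp1, Pappa, Pappa2, Igf2bp3, Fbxo32, Akt1, Akt2 and genes that overlap a member) were named after their values were seen.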

Additional observations from a re-analysis of the deposited data

How the results depend on the processing

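All 10 genes of the axis kept the direction of their log2 fold change under each of the 8 alternatives (80 values, 0 reversed), and scaling moved the median log2 fold change of all genes by less than 0.1. The call of Igf1 held in 7 of 8 alternatives (adjusted p from 1.49e-05 to 0.885), that of Irs1 in 7 (3.45e-05 to 0.885) and that of Igfbp4 in 6 (0.00896 to 0.885). A likelihood-ratio test that takes all 3 libraries as 1 group for the dispersion counts the difference between groups as spread: it called 0 of the 10 genes (2 higher at an unadjusted p under 0.05), 0 of the 64 other pathway genes, and 0 genes higher and 0 lower over all (540 at an unadjusted p under 0.05), where edgeR as reported called 773 and 649. DESeq2 called 448 genes higher and 374 lower over all, 2 of the 10 axis genes and 3 pathway genes in place of 7. Leaving out a Tead4 shRNA library leaves 1 library against 1 with no residual degree of freedom, so no test was run: the count of axis genes at least 2-fold higher was then 2 to 4, and that of genes lower 0. The control library cannot be left out. No paired analysis was possible with 1 control library, and the labels give the libraries no replicate numbers. Igfbp4, Igfbp2 and Irs2 had 137 to 204 reads in the control library, which sets the width of their intervals.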

Other observations

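For each gene that passed the test, the genes with the most similar pair of log2 ratios to the control library were looked up among 9528 genes with a mean of at least 5 CPM. Likeness is the distance over 2 ratios that share the control library, so it is a description only. Nearest to Igf1 were F2r, the thrombin receptor, with ratios of 1.45 and 1.17 (distance 0.037), and the ATP-gated channel P2rx6, with 1.49 and 1.07 (0.079). Nearest to Irs1 were Galntl2 (1.41 and 1.03, distance 0.017) and Antxr1 (1.42 and 0.998, distance 0.041), a receptor of the cell surface that binds matrix. Nearest to Igfbp4 were Ogn, a small proteoglycan of the matrix, with 0.96 and 0.94 (0.018), and the secreted protease inhibitor Serpine2, with 0.96 and 0.91 (0.018).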
